A study of Mus musculus with 16 samples.

Results

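The genes described here encode the presynaptic machinery that stores neurotransmitter in vesicles, docks and primes those vesicles, fuses them with the membrane and retrieves them. They were taken as a named list of 41 genes, and all 41 have a probe set with their symbol alone, among 18193 genes with such a probe set on the array. For each gene the probe set of highest mean over the 16 arrays stands for the gene. The 41 genes fall into 6 roles: vesicle membrane and surface (12), calcium sensors (5), SNARE proteins with complexins and SNARE recycling (9), docking, priming and active zone (9), vesicle retrieval (4) and adhesion (2). A probe set entered the tests if its log2 value exceeded 4 on at least 4 arrays, which 40 of the 41 genes did, beside 11464 genes in all.

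The study read hippocampal RNA of 16 male mice, all 12 months old, on 16 Affymetrix arrays, with 1 mouse per array. The AbPP antisense group is 4 SAMP8 mice that received, by vein, an antisense oligonucleotide against AbPP, the amyloid beta precursor protein, and the Random antisense group is 4 SAMP8 mice that received a random antisense oligonucleotide by the same route. The Untreated SAMP8 group is 4 mice of the same senescence-accelerated line with no treatment, and the Control group is 4 untreated mice of a 50% backcross of SAMP8 with CD-1 mice. SAMP8 mice have memory deficits at this age and the backcross mice do not. The untreated groups received no oligonucleotide at all, and no CD-1 mice or younger mice are among the arrays. One characteristic of Random antisense 1 says that it was not treated, against its title, source and description, and it was kept with its title. App, which encodes AbPP, had a mean of 14.16 after AbPP antisense, against 14.38 after Random antisense (difference -0.22, limma adjusted p = 0.503). Its AbPP antisense arrays 1 to 4 read 14.19, 14.32, 14.26 and 13.89, and the Random antisense arrays read 14.43, 14.39, 14.37 and 14.34. It read 14.39, 14.35, 14.35 and 14.35 on the Untreated SAMP8 arrays and 14.44, 14.35, 14.46 and 13.94 on the Control arrays.

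At a nerve terminal, vesicles loaded by transporters are tethered at the active zone by scaffold proteins and Rab3, primed by Munc13 proteins, and fused when calcium binds synaptotagmin and the SNARE proteins zip together. The ATPase NSF then takes the SNARE complex apart, and dynamin, endophilin, amphiphysin and synaptojanin return the membrane to new vesicles. In the hippocampus this cycle runs at the mossy fibre, Schaffer collateral and interneuron synapses whose plasticity is tied to memory. Markers of hippocampal neurons were present: all 16 annotated genes of the list fixed for them were above the filter, with a summed level (log2 of the summed linear values) of 13.48 to 14.96 after AbPP antisense, 14.45 to 14.54 after Random antisense, 14.42 to 14.48 in Untreated SAMP8 and 13.76 to 14.44 in Control. Presynaptic RNA is made by neurons, so in whole tissue fewer neurons and less RNA per neuron cannot be told apart.

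RefSeq promoter windows on mouse assembly GRCm38.p6, from 250 bases before to 50 after each annotated start, were found for 32 of the 41 genes (42 windows). The search left a chromosome out for these genes but not for all windows, so the shares below compare unlike sets in that respect. Those of the priming factor Unc13b, the vesicle SNARE Vamp1, the active zone organiser Rims1 and the glutamate transporter Slc17a7 are shown because the results below turn on these 4 genes. Each is printed 5′ to 3′ on the strand of its gene. Capitals mark the GC box (GGGCGG) and the CCAAT box (CCAAT) on either strand, and neighbouring matches can overlap.
Unc13b, chr4:43058703-43059002, plus strand: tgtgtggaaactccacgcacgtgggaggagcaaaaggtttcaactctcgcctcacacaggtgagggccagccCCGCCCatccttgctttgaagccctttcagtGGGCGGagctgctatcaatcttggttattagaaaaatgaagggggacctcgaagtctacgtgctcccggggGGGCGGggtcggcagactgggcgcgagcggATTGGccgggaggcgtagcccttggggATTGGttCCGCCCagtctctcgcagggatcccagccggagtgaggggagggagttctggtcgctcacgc
Vamp1, chr6:125215331-125215630, plus strand: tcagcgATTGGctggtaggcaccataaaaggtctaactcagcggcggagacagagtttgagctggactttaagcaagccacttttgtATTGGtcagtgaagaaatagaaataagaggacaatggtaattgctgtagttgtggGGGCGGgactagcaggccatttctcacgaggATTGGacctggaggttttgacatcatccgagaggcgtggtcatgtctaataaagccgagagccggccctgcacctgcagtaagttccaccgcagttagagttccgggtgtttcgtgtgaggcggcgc
Rims1, chr1:22806109-22806408, minus strand: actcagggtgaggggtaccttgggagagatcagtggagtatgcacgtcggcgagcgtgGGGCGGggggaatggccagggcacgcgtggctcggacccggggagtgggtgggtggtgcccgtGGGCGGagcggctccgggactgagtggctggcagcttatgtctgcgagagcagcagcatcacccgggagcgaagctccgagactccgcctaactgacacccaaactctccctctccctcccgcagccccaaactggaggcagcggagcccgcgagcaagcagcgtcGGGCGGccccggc
Slc17a7, chr7:45163671-45163970, plus strand: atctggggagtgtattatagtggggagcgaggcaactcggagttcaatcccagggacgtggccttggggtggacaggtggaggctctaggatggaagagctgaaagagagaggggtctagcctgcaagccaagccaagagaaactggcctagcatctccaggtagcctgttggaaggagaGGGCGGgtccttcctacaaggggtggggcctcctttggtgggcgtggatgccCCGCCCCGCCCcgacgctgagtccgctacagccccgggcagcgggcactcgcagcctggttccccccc
A GC box lay in 26 of the 42 presynaptic windows (61.9%), against 35.7% of all 32851 windows of this length. A CCAAT box lay in 9 (21.4%), against 37.4% of all windows. The palindromic CRE (TGACGTCA) lay in 3 (7.14%, those of Napa, Sh3gl2 and Syn1), against 1.79%, and TATAAA in 3 (7.14%), against 13.6%. The median GC content was 61.3% in the presynaptic windows, against 52.7% in all, and the median number of CpG pairs was 17.5, against 7. GC content and GC box matches move together, so these shares are a description of the windows and not of bound factors.

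Control 4 and AbPP antisense 4 stood apart from the other arrays and bear on what follows. On Control 4 the median deviation of the 40 genes from their own medians over the arrays was -0.73, 39 of the 40 lay below their median, and 27 had their lowest value of all 16 arrays there, against 31.1% of all genes tested. On the other 15 arrays the median deviation lay between -0.10 and 0.08. Control 4 also had the highest leukocyte signal: 4 of 13 annotated leukocyte genes passed the filter, with a summed level of 11.44 to 12.29 after AbPP antisense, 11.70 to 11.97 after Random antisense, 11.76 to 11.87 in Untreated SAMP8 and 11.47 to 14.94 in Control. The T-cell genes Cd3e, Cd3g and Cd2, the B-cell genes Cd79a and Ms4a1, and Ms4a4b, Gzma, Gzmb and Ccl5 did not pass the filter. Because the filter asks for at least 4 arrays, a gene raised on Control 4 alone fails it. Failing it therefore does not show that these cells were absent from Control 4. Neuron markers, 18 of 18 above the filter, were 0.71 below their median on Control 4, and their summed level was 16.87 to 17.09 after AbPP antisense, 16.98 to 17.07 after Random antisense, 16.97 to 17.05 in Untreated SAMP8 and 16.32 to 17.09 in Control. AbPP antisense 4 had a beta-actin 3' minus 5' signal of 3.89, against 0.84 to 1.60 on the others, a measure that grows as RNA is shortened from the 5' end. Its presynaptic median deviation was -0.01 by the brightest probe sets and -0.58 by the other probe sets of the same genes. Hippocampal neuron markers deviated from their medians by 0.47, -0.95, 0.56 and -0.81 on AbPP antisense 1 to 4. On the Random antisense arrays they deviated by -0.06 to 0.09. Thalamus and habenula markers deviated by -1.69, -0.50, -1.90 and 0.15 on AbPP antisense 1 to 4, and by -0.73 to 0.03 after Random antisense. Astrocyte markers deviated by -0.01, 0.54, 0.09 and -0.09 on AbPP antisense 1 to 4. The part of these measures in the results was not tested. Differences that turn on Control 4 or AbPP antisense 4 are followed by their values without that array.

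**Figure D1:**
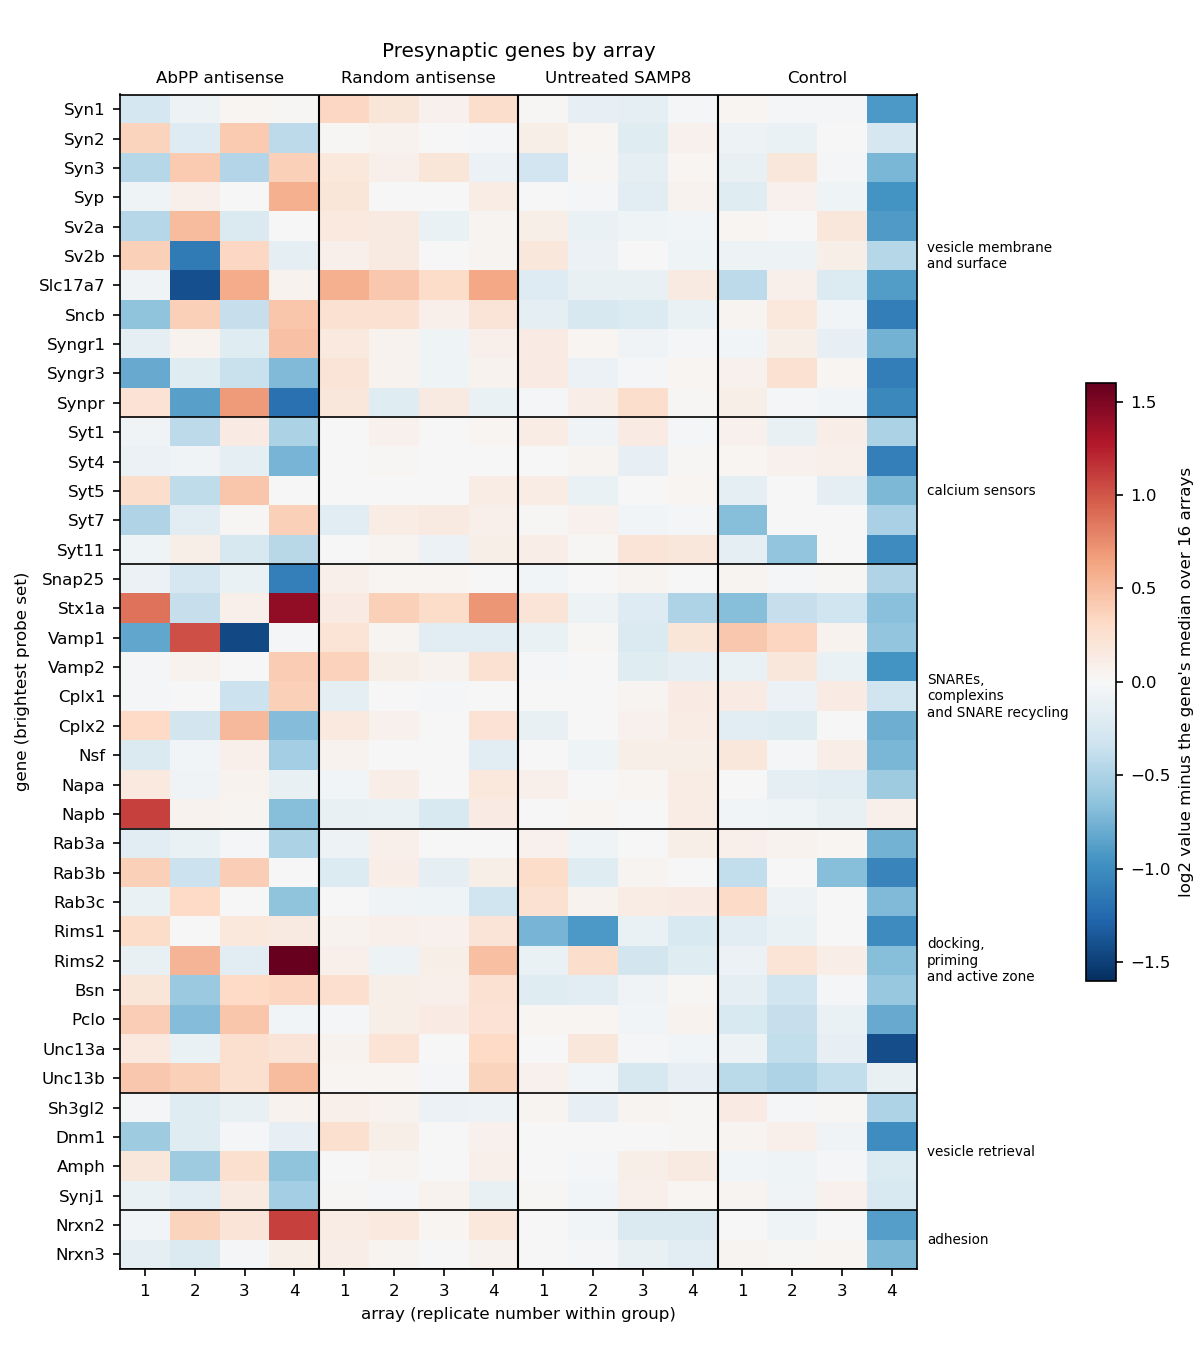
Each cell is the log2 value of 1 gene on 1 array minus that gene's median over the 16 arrays, with genes in rows by role and arrays in columns by group. Control 4 is low for 39 of 40 genes, while AbPP antisense arrays hold high and low cells side by side.

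**Figure D2:**
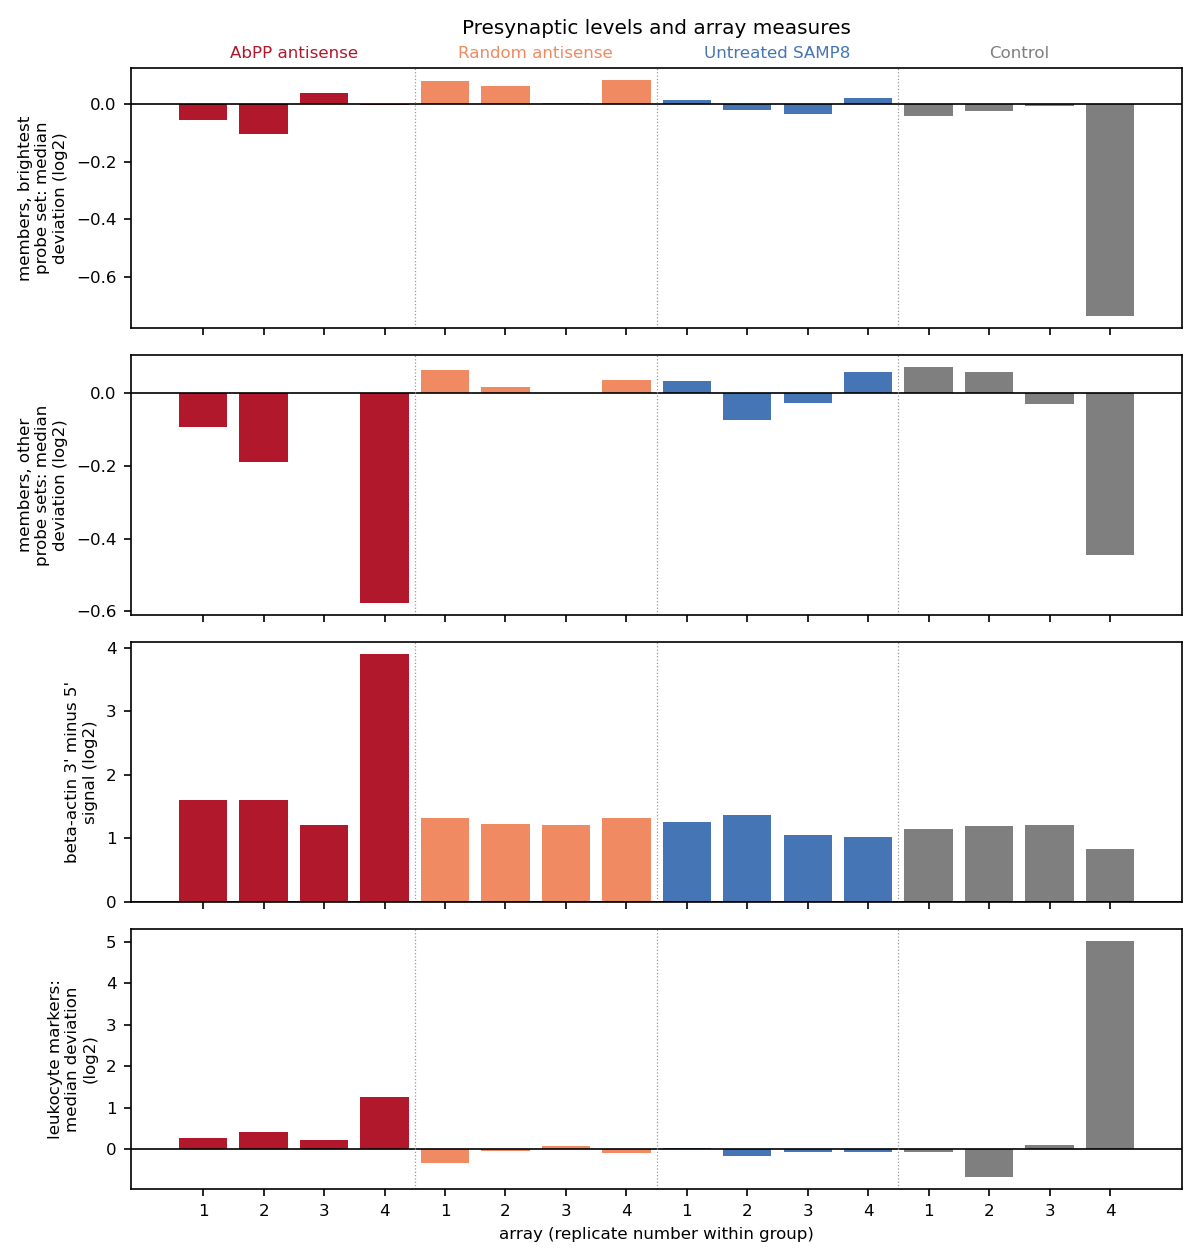
Bars show, for each array, the median deviation of the presynaptic genes by their brightest and by their other probe sets, the beta-actin 3' minus 5' signal and the median deviation of leukocyte markers, all on the log2 scale. The brightest probe sets lie at -0.73 on Control 4, and the other probe sets lie lowest on AbPP antisense 4 (-0.58), where beta-actin reaches 3.89.

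Unc13b, which encodes the vesicle priming factor Munc13-2, was the presynaptic gene whose level differed most clearly over the 4 groups. It read 9.01, 8.96, 8.84 and 9.09 on AbPP antisense 1 to 4, and 8.62, 8.61, 8.55 and 8.94 on Random antisense 1 to 4. It read 8.65, 8.54, 8.33 and 8.46 on Untreated SAMP8 1 to 4, and 8.15, 8.09, 8.19 and 8.46 on Control 1 to 4. The groups stood in the order AbPP antisense, Random antisense, Untreated SAMP8 and Control, at 8.98 ± 0.10, 8.68 ± 0.17, 8.49 ± 0.14 and 8.22 ± 0.17 (SD, n = 4 each). Neighbours in that order overlapped, while all 4 AbPP antisense arrays lay above all 4 Untreated SAMP8 arrays. The moderated F test over the 4 groups gave an adjusted p of 0.0288 in limma, and Unc13b was the 1 of 40 genes that passed it, against 0.419% of all genes tested. Of the 4 comparisons fitted, which do not set either antisense group against Control, the largest difference was AbPP antisense minus Untreated SAMP8, 0.48 (SE 0.12, 95% interval 0.22 to 0.74, adjusted p = 0.110), a 1.40-fold higher level. AbPP antisense minus Random antisense was 0.29 (SE 0.12, 95% interval 0.03 to 0.55, adjusted p = 0.357), and Untreated SAMP8 minus Control was 0.27 (SE 0.12, 95% interval 0.01 to 0.53, adjusted p = 0.999). Control 4, low for most genes, was the highest Control array for Unc13b. With 1 array left out in turn, the F test passed in 6 of 16 fits: without AbPP antisense 2 (adjusted p = 0.0482), 3 (0.0150) or 4 (0.0419), Random antisense 4 (0.0317), Untreated SAMP8 1 (0.0461) or Control 4 (0.0116). It lay between 0.0509 and 0.0810 without any of the 10 others, which are AbPP antisense 1, Random antisense 1, 2 and 3, Untreated SAMP8 2, 3 and 4, and Control 1, 2 and 3. With the beta-actin signal as a covariate the adjusted p was 0.0907. Unc13b has 2 probe sets, of which 1 passed the filter, so these results rest on that probe set alone.

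**Figure D3:**
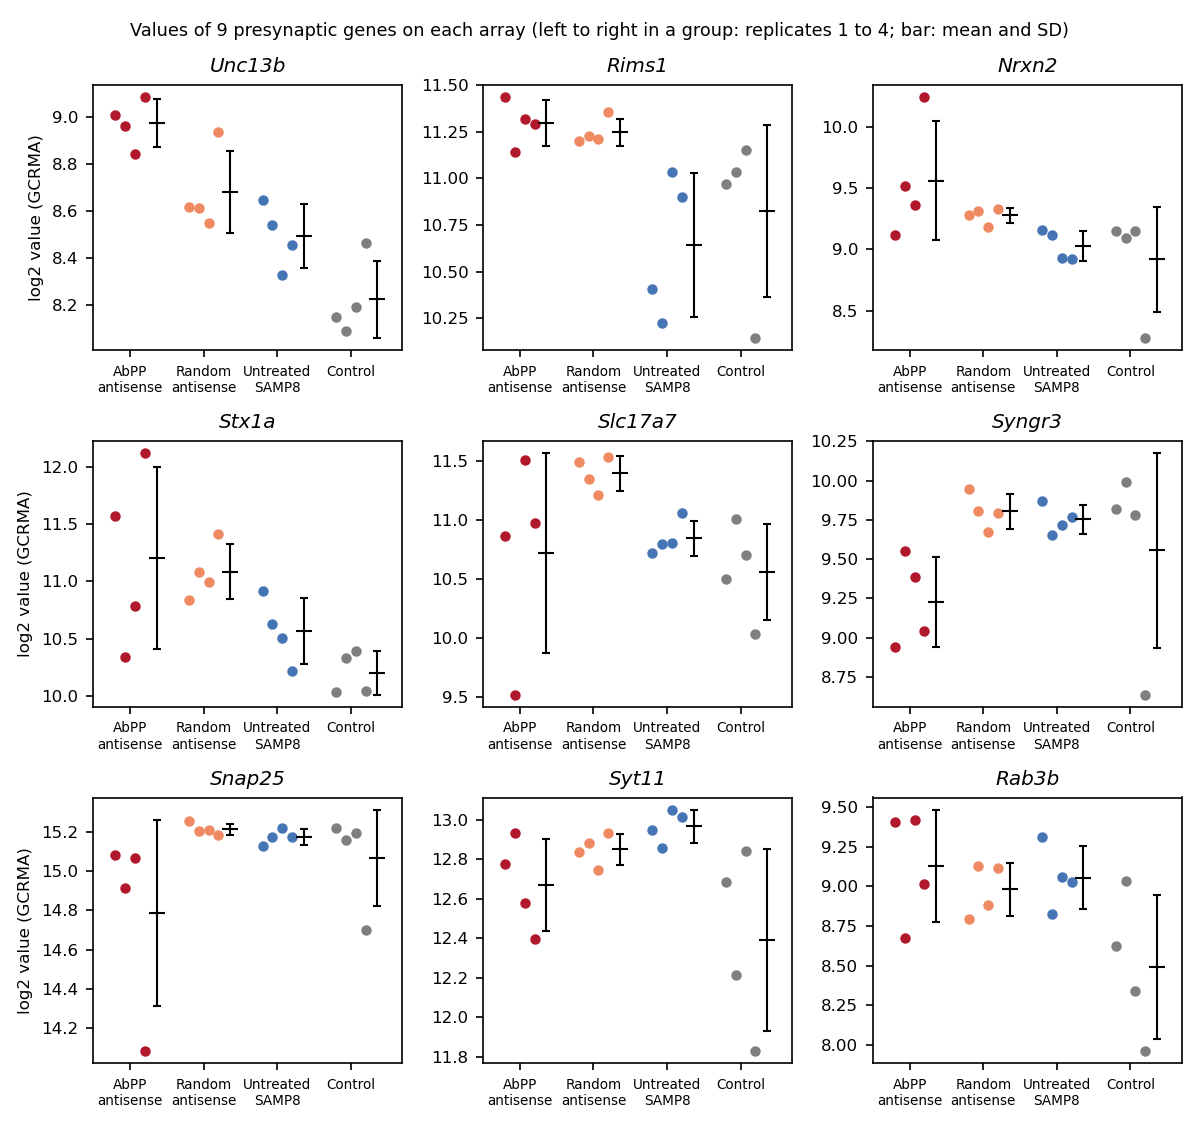
Points are the log2 values of 9 presynaptic genes on each array, replicates 1 to 4 from left to right in each group, and bars are the group mean and SD. Unc13b descends over the 4 groups, Rims1 is low on Untreated SAMP8 1 and 2 and Control 4, and Snap25 is spread most after AbPP antisense.

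The vesicle membrane and surface genes include the synapsins, which hold vesicles in the reserve pool, and the vesicular glutamate transporter. Syn1 (synapsin 1) read 11.50, 11.69, 11.81 and 11.80 on the AbPP antisense arrays, 12.11, 11.97, 11.84 and 12.06 on those of Random antisense, 11.80, 11.65, 11.62 and 11.76 on those of Untreated SAMP8 and 11.80, 11.75, 11.74 and 10.86 on those of Control. The Random antisense arrays lay above all AbPP antisense arrays and above all Untreated SAMP8 arrays, and Control 4 was lowest. Slc17a7, which encodes VGLUT1 and loads glutamate into vesicles, read 10.87, 9.52, 11.51 and 10.98 on the AbPP antisense arrays, 11.49, 11.35, 11.21 and 11.54 on those of Random antisense, 10.72, 10.80, 10.81 and 11.06 on those of Untreated SAMP8 and 10.50, 11.01, 10.70 and 10.03 on those of Control. AbPP antisense 2 was its lowest array and AbPP antisense 3 lay among the highest, while the Random antisense arrays all lay above the Untreated SAMP8 arrays. Syngr3 (synaptogyrin 3, a vesicle membrane protein) had values of 8.94, 9.55, 9.39 and 9.04 on the AbPP antisense arrays and 9.95, 9.80, 9.67 and 9.80 on the Random antisense arrays, against 9.87, 9.65, 9.72 and 9.77 for Untreated SAMP8 and 9.82, 9.99, 9.78 and 8.64 for Control. Each AbPP antisense array read lower than each Random antisense and Untreated SAMP8 array, and Control 4 was lower still.

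Syp (synaptophysin, a main vesicle membrane protein that binds the vesicle SNARE) had values of 13.05, 13.20, 13.11 and 13.69 on the AbPP antisense arrays and 13.31, 13.13, 13.12 and 13.24 on the Random antisense arrays, against 13.12, 13.10, 12.94 and 13.18 for Untreated SAMP8 and 12.93, 13.19, 13.05 and 12.16 for Control. The groups overlapped, with AbPP antisense 4 highest and Control 4 lowest. Of the 7 other vesicle genes tested, AbPP antisense minus Random antisense ran over -0.29 for Synpr, which encodes synaptoporin, a protein of hippocampal mossy fibre vesicles, to 0.02 for Syn2. AbPP antisense minus Untreated SAMP8 ran over -0.38 (Synpr) to 0.13 (Sncb, beta-synuclein), and Untreated SAMP8 minus Control over 0.05 (Sncb) to 0.34 (Synpr). Synpr without AbPP antisense 4 was 0.0095 relative to Random antisense and -0.077 relative to Untreated SAMP8, and without Control 4 Untreated SAMP8 minus Control was 0.085 for Synpr and -0.24 for Sncb. Sv2b, a vesicle glycoprotein, read 11.14 on AbPP antisense 2, against 12.12 to 12.65 on the 3 others of that group. Sv2c, a glycoprotein known mainly from basal ganglia, was below the filter at 2.83 to 2.98 on 15 arrays and 4.11 on Control 2, and was not tested.

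Among the calcium sensors, Syt1 (synaptotagmin 1, the sensor for fast synchronous release) read 13.72, 13.37, 13.91 and 13.28 on the AbPP antisense arrays, 13.79, 13.85, 13.78 and 13.81 on those of Random antisense, 13.90, 13.73, 13.91 and 13.77 on those of Untreated SAMP8 and 13.85, 13.67, 13.89 and 13.27 on those of Control. AbPP antisense 2 and 4 and Control 4 were low, and all groups overlapped. Syt11 (synaptotagmin 11, an isoform that binds calcium poorly) had values of 12.78, 12.93, 12.58 and 12.39 on the AbPP antisense arrays and 12.84, 12.88, 12.75 and 12.94 on the Random antisense arrays, against 12.95, 12.86, 13.05 and 13.02 for Untreated SAMP8 and 12.69, 12.21, 12.84 and 11.83 for Control. All Untreated SAMP8 arrays lay above all Control arrays, of which 2 and 4 were lowest. Of the others, Syt4 lay below every Random antisense array on all AbPP antisense arrays, at 10.93 to 11.61 after AbPP antisense and 11.66 to 11.68 after Random antisense, and Control 4 was its lowest array at 10.57. Syt7, a sensor of slow and facilitated release, differed by -0.11 between AbPP antisense and Random antisense and by 0.30 between Untreated SAMP8 and Control, and Syt5 by 0.05 and 0.27 in the same pairs. The first difference without AbPP antisense 4 was -0.26 for Syt7 and 0.076 for Syt5, and without Control 4 the second was 0.23 for Syt7 and 0.11 for Syt5.

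Snap25 and Stx1a encode the SNARE proteins of the terminal membrane, and Vamp1 and Vamp2 those of the vesicle. Snap25 read 15.08, 14.91, 15.07 and 14.08 on the AbPP antisense arrays, 15.26, 15.21, 15.21 and 15.18 on those of Random antisense, 15.13, 15.18, 15.22 and 15.18 on those of Untreated SAMP8 and 15.22, 15.16, 15.19 and 14.70 on those of Control. No AbPP antisense array reached the lowest Random antisense or Untreated SAMP8 array, with AbPP antisense 4 farthest, and Control 4 was low among the Control arrays. Stx1a (syntaxin 1A) had values of 11.57, 10.34, 10.79 and 12.12 on the AbPP antisense arrays and 10.84, 11.08, 11.00 and 11.41 on the Random antisense arrays, against 10.91, 10.63, 10.51 and 10.22 for Untreated SAMP8 and 10.03, 10.33, 10.39 and 10.04 for Control. AbPP antisense 4 and 1 were the highest of all arrays and AbPP antisense 2 lay among the Control values. All Random antisense arrays lay above all Control arrays, and every other pair of groups overlapped. Vamp2 (synaptobrevin 2) read 11.94, 12.02, 11.96 and 12.37 on the AbPP antisense arrays, 12.33, 12.05, 12.02 and 12.21 on those of Random antisense, 11.93, 11.97, 11.77 and 11.81 on those of Untreated SAMP8 and 11.86, 12.14, 11.86 and 11.01 on those of Control. All Random antisense arrays lay above all Untreated SAMP8 arrays, and Control 4 was lowest. Vamp1 (synaptobrevin 1) had values of 10.91, 12.78, 10.30 and 11.73 on the AbPP antisense arrays and 11.97, 11.79, 11.57 and 11.56 on the Random antisense arrays, against 11.64, 11.76, 11.52 and 11.94 for Untreated SAMP8 and 12.17, 12.09, 11.80 and 11.12 for Control. AbPP antisense 2 was its highest array and AbPP antisense 3 its lowest, so the spread of that group, 1.07 (SD), exceeded every difference between group means.

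Cplx1 (complexin 1, which clamps and then promotes SNARE-driven fusion) read 12.89, 12.90, 12.57 and 13.29 on the AbPP antisense arrays, 12.77, 12.91, 12.89 and 12.91 on those of Random antisense, 12.90, 12.91, 12.95 and 13.03 on those of Untreated SAMP8 and 13.04, 12.81, 13.04 and 12.59 on those of Control. The groups overlapped and their means lay within 0.08 of each other. Napa (alpha-SNAP, the adaptor that brings NSF to the SNARE complex) had values of 11.04, 10.83, 10.94 and 10.77 on the AbPP antisense arrays and 10.84, 10.99, 10.88 and 11.05 on the Random antisense arrays, against 10.96, 10.88, 10.92 and 11.01 for Untreated SAMP8 and 10.88, 10.73, 10.71 and 10.31 for Control. Untreated SAMP8 arrays all lay above the Control arrays, though Untreated SAMP8 2 and Control 1 round to the same value, and Control 4 was lowest. Cplx2 and Nsf, the ATPase itself, differed by -0.15 and -0.16 between AbPP antisense and Random antisense, and by 0.30 and 0.15 between Untreated SAMP8 and Control. Without AbPP antisense 4 the first pair of values was 0.073 for Cplx2 and -0.035 for Nsf, and without Control 4 the second was 0.13 for Cplx2 and -0.061 for Nsf. Napb (beta-SNAP) read 12.60 on AbPP antisense 1 and 10.83 on AbPP antisense 4, against 11.26 to 11.63 on the 12 arrays of the other groups.

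The docking, priming and active zone genes had a median difference of 0.10 between AbPP antisense and Untreated SAMP8, against -0.03 for all 40 genes. Rims1 (RIM1, which ties Rab3 on vesicles to calcium channels and Munc13) had values of 11.44, 11.14, 11.32 and 11.29 on the AbPP antisense arrays and 11.20, 11.22, 11.21 and 11.35 on the Random antisense arrays, against 10.41, 10.23, 11.04 and 10.90 for Untreated SAMP8 and 10.97, 11.04, 11.15 and 10.14 for Control. All AbPP antisense and Random antisense arrays lay above all Untreated SAMP8 arrays, of which 1 and 2 were low, as was Control 4. The other probe set of Rims1 was also low on Untreated SAMP8 1 and 2, at 10.05 and 9.79, against 10.35 and 10.81 on Untreated SAMP8 3 and 4. Bsn (bassoon, an active zone scaffold) read 11.42, 10.63, 11.55 and 11.58 on the AbPP antisense arrays, 11.50, 11.32, 11.31 and 11.48 on those of Random antisense, 11.04, 11.06, 11.17 and 11.25 on those of Untreated SAMP8 and 11.09, 10.91, 11.21 and 10.62 on those of Control. The Random antisense arrays lay above all Untreated SAMP8 arrays, and AbPP antisense 2 and Control 4 were low. Unc13a (Munc13-1, the main priming factor of excitatory synapses) had values of 9.78, 9.52, 9.87 and 9.83 on the AbPP antisense arrays and 9.68, 9.84, 9.63 and 9.94 on the Random antisense arrays, against 9.61, 9.80, 9.59 and 9.58 for Untreated SAMP8 and 9.54, 9.23, 9.50 and 8.21 for Control. Every Untreated SAMP8 array lay above every Control array, and Control 4 was far below the rest.

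Rims2 (RIM2) read 10.46, 11.13, 10.39 and 12.18 on the AbPP antisense arrays, 10.66, 10.50, 10.67 and 11.06 on those of Random antisense, 10.47, 10.86, 10.29 and 10.39 on those of Untreated SAMP8 and 10.49, 10.80, 10.68 and 9.89 on those of Control. AbPP antisense 4 was high and all groups overlapped. Rab3b (a vesicle GTPase) had values of 9.41, 8.68, 9.42 and 9.02 on the AbPP antisense arrays and 8.80, 9.13, 8.88 and 9.12 on the Random antisense arrays, against 9.31, 8.82, 9.06 and 9.03 for Untreated SAMP8 and 8.62, 9.03, 8.34 and 7.96 for Control. Control 4 and 3 were lowest, and the Untreated SAMP8 and Control ranges overlapped. Rab3c, a related GTPase, read 11.86, 12.27, 11.96 and 11.31 on the AbPP antisense arrays, 11.96, 11.90, 11.89 and 11.64 on those of Random antisense, 12.20, 12.02, 12.08 and 12.09 on those of Untreated SAMP8 and 12.27, 11.88, 11.96 and 11.26 on those of Control. All Random antisense arrays lay below all Untreated SAMP8 arrays, and AbPP antisense 4 and Control 4 were low. Pclo (piccolo, the partner scaffold of bassoon) ran over 11.76 to 11.86 in Untreated SAMP8, above all Control arrays at 10.99 to 11.70. Rab3a, the most studied of these GTPases, differed by -0.20 between AbPP antisense and Random antisense and by 0.17 between Untreated SAMP8 and Control. These became -0.10 without AbPP antisense 4 and -0.030 without Control 4.

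Among the retrieval genes, Dnm1 (dynamin 1, the GTPase that pinches vesicles off the membrane) read 12.60, 12.97, 13.14 and 13.04 on the AbPP antisense arrays, 13.43, 13.27, 13.16 and 13.23 on those of Random antisense, 13.18, 13.16, 13.17 and 13.18 on those of Untreated SAMP8 and 13.21, 13.26, 13.12 and 12.18 on those of Control. AbPP antisense arrays read lower than every Random antisense and Untreated SAMP8 array, and Control 4 was lower still. Sh3gl2 (endophilin A1), Amph (amphiphysin) and Synj1 (synaptojanin 1), which bend the neck of the budding vesicle and strip its coat, had AbPP antisense minus Random antisense differences of -0.06, -0.22 and -0.16, and of -0.10, -0.074 and -0.030 in the same order without AbPP antisense 4. Nrxn3 (neurexin 3, an adhesion protein of the terminal) had values of 11.96, 11.89, 12.09 and 12.21 on the AbPP antisense arrays and 12.22, 12.16, 12.11 and 12.18 on the Random antisense arrays, against 12.13, 12.09, 12.01 and 11.93 for Untreated SAMP8 and 12.17, 12.14, 12.15 and 11.40 for Control. All groups overlapped, and Control 4 was low. Nrxn2 (neurexin 2) read 9.12, 9.52, 9.36 and 10.25 on the AbPP antisense arrays, 9.28, 9.32, 9.19 and 9.33 on those of Random antisense, 9.16, 9.12, 8.93 and 8.92 on those of Untreated SAMP8 and 9.15, 9.09, 9.15 and 8.27 on those of Control. The Random antisense arrays lay above all Untreated SAMP8 arrays, AbPP antisense 4 was highest and Control 4 lowest.

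The comparison of AbPP antisense with Random antisense asks what the sequence of the oligonucleotide adds in SAMP8 mice. Presynaptic genes leaned lower after AbPP antisense than after Random antisense, with the vesicle membrane genes lowest by role. Of the 40 genes, 0 passed the limma test at an adjusted p under 0.05 (0.0262% of all genes did). The median difference of the 40 genes was -0.11, against 0.04 over all genes tested, and 28 of 40 were lower, against 43.2% of all genes. The median was -0.20 for the vesicle genes, -0.18 for the calcium sensors, -0.19 for the retrieval genes, -0.08 for the SNARE group and 0.00 for the active zone group. By role, the median without AbPP antisense 4 was -0.20 for the vesicle genes, -0.11 for the calcium sensors, -0.089 for the retrieval genes, -0.085 for the SNARE group and -0.051 for the active zone group. With the beta-actin signal as a covariate it was -0.24 for the vesicle genes, -0.14 for the SNARE group and -0.12 for the calcium sensors. In that fit the retrieval genes had -0.075 and the active zone group -0.057. The adhesion genes had 0.077 with all arrays, -0.065 without AbPP antisense 4 and -0.14 with the covariate. Relative to Untreated SAMP8, the vesicle genes after AbPP antisense had a median of -0.0059 with all arrays. That median was -0.068 without AbPP antisense 4 and -0.13 with the covariate. For Random antisense minus Untreated SAMP8 the median of the vesicle genes was 0.091.

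At an unadjusted p under 0.05 there were 3 genes, 1 higher (2.5%, against 5.74% of all genes) and 2 lower (5%, against 3.09%). Syngr3 had -0.58 (SE 0.24, 95% interval -1.08 to -0.07, adjusted p = 0.353), lower in 4 of 4 arrays, a level 1.49-fold lower. Snap25 had -0.43 (SE 0.19, 95% interval -0.83 to -0.02, adjusted p = 0.384), and without AbPP antisense 4 the difference was -0.19 (adjusted p = 0.640). Slc17a7 had -0.68 (SE 0.32, 95% interval -1.36 to 0.00, adjusted p = 0.408), and -0.28 (adjusted p = 0.662) without AbPP antisense 2. The 3 of smallest p with higher values were Unc13b, given above, Nrxn2 with 0.28 (SE 0.23, 95% interval -0.20 to 0.77, adjusted p = 0.645) and Rims2 with 0.32 (SE 0.32, 95% interval -0.38 to 1.01, adjusted p = 0.736). Without AbPP antisense 4, Nrxn2 was 0.054 (adjusted p = 0.961) and Rims2 -0.063 (adjusted p = 0.965). Groups did not overlap for 5 genes, all lower after AbPP antisense (Syn1, Syt4, Snap25, Syngr3 and Dnm1), which is 12.5% of the 40, against 2.26% of all genes. In the other direction 0 genes did not overlap, against 4.68% of all genes. Syn1 had -0.29 (SE 0.18, 95% interval -0.67 to 0.08, adjusted p = 0.523) and Dnm1 -0.34 (SE 0.20, 95% interval -0.76 to 0.09, adjusted p = 0.517). The count at an unadjusted p under 0.05 was 0 without Random antisense 1, 1 without AbPP antisense 1 or Random antisense 2 or 3, and 6 without AbPP antisense 3 or Control 4. How many of all genes passed in these fits was not computed. Without AbPP antisense 4 the median was -0.10, with 30 of 40 lower. Choroid plexus markers, 10 of 12 above the filter (Aqp1 and Slc4a5 were not), had a summed level of 11.20 to 15.30 after AbPP antisense, 15.30 to 15.79 after Random antisense, 15.61 to 15.95 in Untreated SAMP8 and 15.36 to 15.67 in Control. Microglial markers, 10 of 10 above the filter, summed to 12.68 to 12.91 after AbPP antisense, 12.23 to 12.50 after Random antisense, 12.40 to 12.50 in Untreated SAMP8 and 12.08 to 13.37 in Control. Endothelial and mural markers, 10 of 12 above the filter (Pecam1 and Cdh5 were not), summed to 12.33 to 13.10 after AbPP antisense, 12.00 to 12.30 after Random antisense, 12.06 to 12.32 in Untreated SAMP8 and 12.10 to 12.55 in Control. Blood markers, 4 of 5 above the filter (Hba-a1 was not), summed to 7.01 to 10.72 after AbPP antisense, 5.61 to 5.91 after Random antisense, 5.43 to 8.19 in Untreated SAMP8 and 6.03 to 13.47 in Control. The microglial, endothelial and blood sums of all AbPP antisense arrays were above those of all Random antisense arrays. The part of these cell types in the presynaptic values was not tested.

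The comparison of AbPP antisense with Untreated SAMP8 adds the effects of being given any oligonucleotide. By their brightest probe sets, Unc13b, Rims1, Nrxn2 and Stx1a held higher values after AbPP antisense, and Syngr3, Snap25 and Syt1 lower ones. In this pair 0 of 40 genes were past the limma threshold (0.096% of all genes were). Another probe set of Nrxn2 was lower after AbPP antisense than after Random antisense, as given below. The rise of Nrxn2 given here is therefore that of its brightest probe set. This comparison and the one before it share the AbPP antisense arrays, so their values are not independent. The median difference was -0.03, against 0.03 over all genes, and 23 of 40 were lower, against 44.8%. At an unadjusted p under 0.05 there were 4 higher (10%, against 5.57%) and 1 lower (2.5%, against 4.42%).

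The 3 higher genes of smallest p were Unc13b, given above, Rims1 with 0.66 (SE 0.21, 95% interval 0.20 to 1.11, adjusted p = 0.185), a 1.57-fold higher level in 4 of 4 arrays, and Nrxn2 with 0.53 (SE 0.23, 95% interval 0.05 to 1.01, adjusted p = 0.295). Stx1a was the fourth, with 0.64 (SE 0.30, 95% interval 0.00 to 1.28, adjusted p = 0.339). The 3 lower ones of smallest p were Syngr3 with -0.52 (SE 0.24, 95% interval -1.03 to -0.02, adjusted p = 0.322), Snap25 with -0.39 (SE 0.19, 95% interval -0.79 to 0.01, adjusted p = 0.357) and Syt1 with -0.26 (SE 0.16, 95% interval -0.59 to 0.07, adjusted p = 0.454). Without AbPP antisense 4 Snap25 was -0.15 (adjusted p = 0.707), Syt1 -0.16 (0.781) Nrxn2 0.30 (0.592) and Stx1a 0.33 (0.690). Groups did not overlap for 2 higher genes, Rims1 and Unc13b (5%, against 4.05% of all genes), and for 3 lower ones, Snap25, Syngr3 and Dnm1 (7.5%, against 2.88%). Unc13b alone passed the threshold in a fit without AbPP antisense 3 (adjusted p = 0.0339). The count at an unadjusted p under 0.05 was 11 without AbPP antisense 3, 3 without Random antisense 2, 3 or 4 or Untreated SAMP8 2, and 2 without AbPP antisense 4 or Untreated SAMP8 3 or 4. How many of all genes passed in these fits was not computed.

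The comparison of Random antisense with Untreated SAMP8 asks what an oligonucleotide of random sequence does in the same line. Values were higher after Random antisense for Rims1, Stx1a and Slc17a7, among others, and 0 of 40 genes passed the limma threshold (0% of all genes did). The median difference was 0.05, against -0.01 over all genes, and 28 of 40 were higher, against 46.6% of all genes. Rims1 was the 1 gene at an unadjusted p under 0.05 (2.5% of 40 higher, against 0.384% of all genes), with 0.60 (SE 0.21, 95% interval 0.15 to 1.06, adjusted p = 1), higher in 4 of 4 arrays. Stx1a had 0.52 (SE 0.30, 95% interval -0.12 to 1.15, adjusted p = 1) and Slc17a7 0.55 (SE 0.32, 95% interval -0.13 to 1.23, adjusted p = 1). The SD of Slc17a7 was 0.15 after Random antisense and 0.15 in Untreated SAMP8, against 0.85 after AbPP antisense and 0.41 in Control. Each SE pools the 4 groups, so the spread of groups not compared here enters these intervals. The lower values of smallest p were those of Rab3c with -0.25 (SE 0.21, 95% interval -0.70 to 0.20, adjusted p = 1), Syt11 with -0.12 (SE 0.19, 95% interval -0.52 to 0.28, adjusted p = 1) and Cplx1 with -0.08 (SE 0.14, 95% interval -0.38 to 0.23, adjusted p = 1). Groups did not overlap for 7 higher genes (17.5%, against 4.21% of all genes): Syn1, Slc17a7, Sncb, Vamp2, Rims1, Bsn and Nrxn2. Rab3c was the 1 lower gene without overlap (2.5%, against 4.86%). The other probe sets of Rims1 (0.57), Stx1a (0.57), Bsn (0.58) and Nrxn2 (0.74) were also higher at an unadjusted p under 0.05, and each had an adjusted p of 1. These 4 were chosen after their values were seen. The count at an unadjusted p under 0.05 was 3 without AbPP antisense 2 or Control 4 and 2 without AbPP antisense 4, arrays that enter through the shared estimate of the spread. It was 10 with array weights, 9 in a fit of the 8 arrays of these groups alone, 7 without Control 4 and AbPP antisense 4 together, and 0 with Random antisense 1 counted as untreated. For these fits the share of all genes was not computed. The counts therefore do not show a change particular to the presynaptic genes.

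The comparison of Untreated SAMP8 with Control asks what differs between the line with memory deficits and its backcross. Presynaptic genes leaned higher in Untreated SAMP8, with Syt11, Rab3b, Unc13a and Pclo in front, and 0 of 40 passed the limma threshold (0.227% of all genes did). The median difference was 0.17, against 0.04 over all genes, and 38 of 40 were higher, against 60.2% of all genes. Without Control 4 the median was 0.03, and 22 were higher and 18 lower. By role the median ran over 0.09 for the neurexins and 0.27 for the calcium sensors with all arrays, and without Control 4 it was -0.11 for the neurexins, -0.015 for the SNARE group, -0.0076 for the retrieval genes, 0.026 for the vesicle genes, 0.062 for the active zone group and 0.11 for the calcium sensors.

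At an unadjusted p under 0.05 there were 5 genes, all higher (12.5%, against 2.34% of all genes). Syt11 had 0.58 (SE 0.19, 95% interval 0.18 to 0.97, adjusted p = 0.606), a 1.49-fold higher level in 4 of 4 arrays. Rab3b had 0.57 (SE 0.22, 95% interval 0.10 to 1.03, adjusted p = 0.880) and Napa 0.29 (SE 0.12, 95% interval 0.03 to 0.54, adjusted p = 0.999). Unc13a had 0.53 (SE 0.23, 95% interval 0.04 to 1.01, adjusted p = 0.999), and Unc13b, given above, was the fifth. Without Control 4 the differences were 0.39 for Syt11, 0.39 for Rab3b, 0.17 for Napa, 0.22 for Unc13a and 0.35 for Unc13b. Only Rims1 with -0.18 (SE 0.21, 95% interval -0.64 to 0.27, adjusted p = 0.999) and Vamp1 with -0.08 (SE 0.39, 95% interval -0.92 to 0.76, adjusted p = 0.999) were lower with all arrays, and without Control 4 they were -0.41 and -0.31. Groups did not overlap for 5 genes, all higher (Syt11, Napa, Pclo, Unc13a and Amph), which is 12.5%, against 2.99% of all genes. The count at an unadjusted p under 0.05 was 1 without Untreated SAMP8 1 and 3 without Untreated SAMP8 2 or 4 or Control 3 or 4. How many of all genes passed in these fits was not computed.

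**Figure D4:**
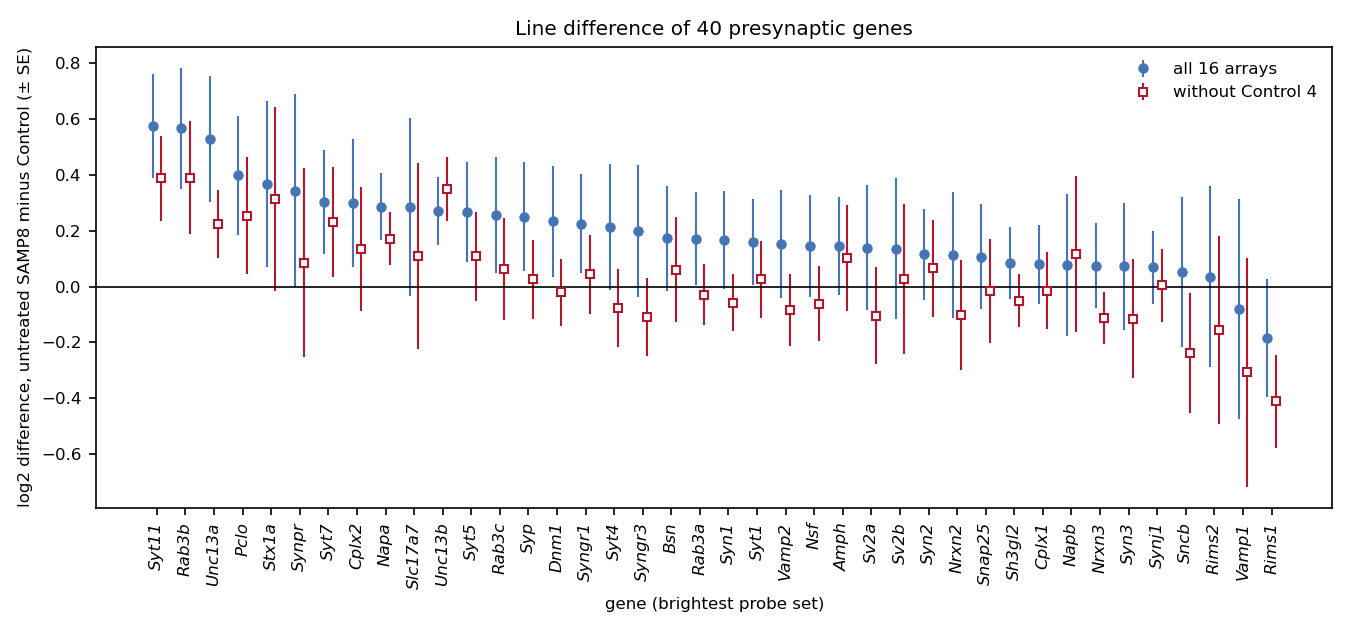
Points are the log2 difference of each of 40 presynaptic genes, Untreated SAMP8 minus Control, with its SE, from all 16 arrays and from the fit without Control 4. With all arrays 38 of 40 lie above 0, and without Control 4 the values spread on either side of 0, with 22 above it.

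Several genes have more than 1 probe set, and these did not read alike after AbPP antisense. For 29 of the genes, 54 further probe sets were tested. Against Random antisense 11 of the 54 had a difference under -1 log2 (20.4%, against 8.1% of such probe sets of all genes), while 0 of the 40 brightest probe sets had one (0.515% of all genes). Against Untreated SAMP8 12 of the 54 had one (22.2%, against 9.8%). Without AbPP antisense 4 the counts were 5 and 3, and with the beta-actin signal as a covariate 2 and 1. The share of such probe sets of all genes was not computed for these fits. The deposited files used here give no positions of the probes within the transcripts.

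The second probe set of Vamp1 was the 1 of the 54 past the limma threshold in any pair of groups, against 0.501% of such probe sets of all genes in that pair. It read 3.55, 5.59, 4.75 and 2.78 after AbPP antisense, against 6.80, 6.60, 6.49 and 6.42 after Random antisense, 6.49, 7.03, 6.74 and 7.24 on the Untreated SAMP8 arrays and 7.74, 7.34, 7.04 and 6.70 on the Control arrays. All AbPP antisense arrays lay below all 12 others, and 2 of them read below 4, the level of the filter, where the size of a difference cannot be trusted. AbPP antisense minus Untreated SAMP8 was -2.71 (SE 0.45, adjusted p = 0.0263), and AbPP antisense minus Random antisense -2.41 (SE 0.45, adjusted p = 0.0680). The brightest probe set of Vamp1 had -0.28 and -0.29 in the same pairs. With 1 array left out in turn, the difference to Untreated SAMP8 ran over -3.18 to -2.24 and passed in 10 of 16 fits. It did not pass without AbPP antisense 1 (adjusted p = 0.0568), Random antisense 3 (0.0512) or Untreated SAMP8 1 (0.0673), 2 (0.0777), 3 (0.107) or 4 (0.0952). The call was also lost with the beta-actin signal as a covariate (-2.08, adjusted p = 0.0607), with no filter on low values (adjusted p = 0.0581) and in a fit of the 8 arrays of these groups alone (adjusted p = 0.373). The difference to Random antisense passed without AbPP antisense 2 (-2.88, adjusted p = 0.00641), 3 (-2.60, 0.0105) or 4 (-1.95, 0.0488) or Control 4 (0.0498).

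Other probe sets had the opposite sign to the brightest one of their gene and themselves an unadjusted p under 0.05. Against Random antisense these were Nrxn2 (-0.87, adjusted p = 0.152, against 0.28 by the brightest) and Cplx1 (-1.44, adjusted p = 0.244, against 0.04). Against Untreated SAMP8 they were Vamp2 (-1.26, adjusted p = 0.201, against 0.20), Syngr1 (-0.48, adjusted p = 0.180, against 0.02) and Nrxn3 (0.48, adjusted p = 0.180, against 0.00 by the brightest). On AbPP antisense 4 the Cplx1 probe set read 7.05, against 9.27 to 9.91 on the 3 others of that group and 10.29 to 10.52 after Random antisense. Leaving out AbPP antisense 4 gave differences of -0.69 for the Nrxn2 probe set and -0.81 for that of Cplx1, and -0.94 for that of Vamp2 relative to Untreated SAMP8. The brightest probe sets of Nrxn2 and Cplx1 had a limma unadjusted p of 0.23 and 0.78 against Random antisense. The size of the difference therefore varies with the probe set read, while opposite directions are not shown.

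**Figure D5:**
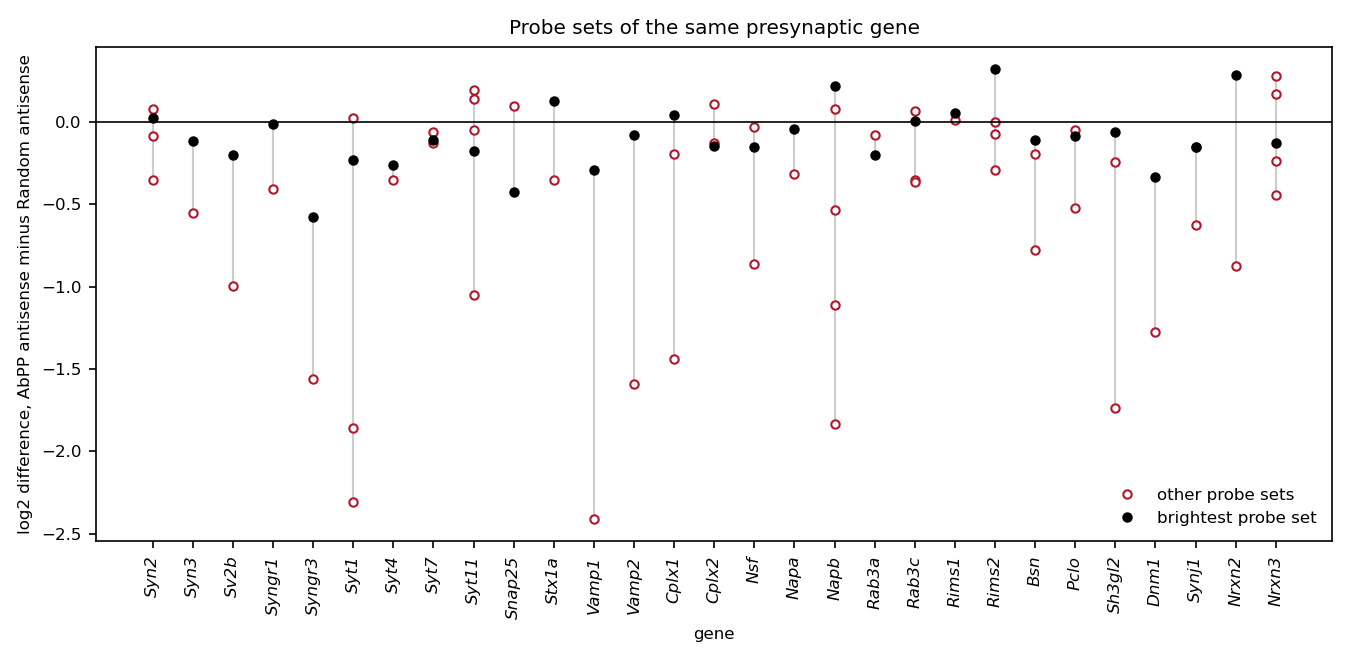
Each column is 1 presynaptic gene, and points are the log2 difference, AbPP antisense minus Random antisense, of its brightest (filled) and other (open) probe sets. Filled points lie between -0.58 and 0.32 for the genes drawn, and open points reach -2.41 (Vamp1) and -2.31 (Syt1).

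A wider list of 97 related genes, covering further synaptotagmins, syntaxins, adaptor and clathrin chains, proton pump subunits and calcium channels, had 85 members tested. In each of the 4 comparisons 0 of the 85 passed the limma threshold, and their median differences were -0.01, -0.01, 0.04 and 0.11 in the order above. After AbPP antisense Synj2 (synaptojanin 2, a lipid phosphatase) had -0.71 relative to Random antisense (adjusted p = 0.131) and -0.46 relative to Untreated SAMP8 (adjusted p = 0.243). Nlgn3, a neuroligin that binds neurexins, had 0.41 (adjusted p = 0.364) and 0.56 (adjusted p = 0.175), and Erc1, an active zone protein that binds RIM, had 0.24 (adjusted p = 0.395) and 0.36 (adjusted p = 0.171). Cacna1b, the pore subunit of N-type calcium channels, had 0.28 (adjusted p = 0.450) and 0.43 (adjusted p = 0.196). Bin1, related to amphiphysin, had -0.24 (adjusted p = 0.460) and -0.33 (adjusted p = 0.250), Vti1a, a SNARE, -0.23 relative to Random antisense (adjusted p = 0.460), and Atp6v1h, a proton pump subunit, -0.41 relative to Untreated SAMP8 (adjusted p = 0.265). With AbPP antisense 4 left out, Atp6v1h was -0.26 relative to Untreated SAMP8, and Cacna1b 0.19 relative to Random antisense. Between Untreated SAMP8 and Control, Cask, a scaffold that binds neurexin, had 0.59, Stxbp5l (tomosyn 2) 0.29, Ap3b2 0.35, Syngr2 -1.11, Clta -0.14 and Sh3gl1 -0.11, each with an adjusted p of 0.999. Without Control 4, Syngr2 was -0.12, Ap3b2 0.12, Sh3gl1 -0.050 and Cask 0.41. Between Random antisense and Untreated SAMP8, Rims4 had 0.43, Synj2 0.25, Stx6 0.24, Atp6v1h -0.19, Stx12 -0.21 and Napg -0.14, each with an adjusted p of 1.

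The presynaptic genes varied unequally within the groups. The median SD over 4 arrays was 0.357 after AbPP antisense, 0.101 after Random antisense, 0.0906 in Untreated SAMP8 and 0.399 in Control, against 0.338, 0.107, 0.111 and 0.276 over all genes. Over the 780 pairs of presynaptic genes the median correlation across arrays was 0.41 with 16 arrays and 0.06 without Control 4, a description of arrays that share a library for every gene. The 4 arrays of each group limit the precision: the median SE of a difference was 0.20 log2 over the 40 genes. It was the same in each of the comparisons, because the fit pools the spread of the 4 groups. For Random antisense minus Untreated SAMP8, the groups of smallest spread, arrays of the other groups enter that SE.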

How the data were processed

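The deposited values are log2 signals per probe set, made by the authors with GCRMA, per the submitters' processing notes (version not given in the sources used here). GCRMA corrects background, normalizes quantiles and gives 1 value per probe set. Per the labels, 4 µg of total RNA of 1 mouse made the biotinylated cRNA of each array. Scanner files were not used here, so these steps were not repeated.

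Of 45101 probe sets, 64 controls were left out and 23905 exceeded 4 log2 on at least 4 arrays. A platform table named them: 34945 carry 1 symbol, 932 several and 9160 none. limma 3.58.1 in R 4.3.3 fitted a one-way layout of 4 groups (residual degrees of freedom 12, prior 2.63), with Benjamini-Hochberg adjustment over all tested probe sets of a contrast and a threshold of 0.05. The labels call the replicates separate mice. The fitting code was tested on simulated data in which a probe set had the same spread in all groups. The real groups differ in spread, so that test does not cover this feature of the data. Figures used Python 3.11.15 and matplotlib 3.10.9.

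The members, the related genes, the marker lists and the tests were chosen with earlier results of these data known. Values on every array are given for 13 members that stand for the roles and, in each comparison, for the 3 of smallest p in each direction where fewer than 3 passed. Related genes follow the same rule, and other probe sets are named where called, or where opposite in sign at an unadjusted p under 0.05. The alternatives were 12 other settings and leaving out each array in turn. Probes were not placed on a genome.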

Additional observations from a re-analysis of the deposited data

Results flagged for a closer look

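Single arrays stood far from the 3 others of their group for several presynaptic values by Dixon's test of the gap to the nearest array over the range of the group. Chance marks about 1 in 20 groups of 4 in this way, and over the 40 genes 19 of 160 groups were marked, 11 of them for a low Control 4. Apart from Control 4, the marks were about as many as chance gives. The median deviation of the presynaptic genes was -0.73 on Control 4. Control 4 was also the low array for Syn1 (10.86), Snap25 (14.70), Dnm1 (12.18), Syngr3 (8.64), Nrxn2 (8.27) and Nrxn3 (11.40). AbPP antisense 4 was low for Snap25 (14.08), and AbPP antisense 2 for Bsn (10.63). Random antisense 4 was high for Rims1 (11.35), Random antisense 1 low for Cplx1 (12.77), and Untreated SAMP8 2 high for Unc13a (9.80).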

How the results depend on the processing

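In the 12 settings other than leaving out 1 array, 0 of 44 counts of presynaptic genes past the threshold in a pair of groups rose above 0. Over all settings, 664 of 700 values of single genes kept their direction and their side of the threshold. Many settings cannot move a difference, such as leaving out an array of a group not compared. Most values also lay far above the threshold with all arrays. The share kept is therefore no measure of robustness. At an unadjusted p under 0.05, AbPP antisense against Random antisense had 3 genes: 9 without Control 4 and AbPP antisense 4 together, 9 with the mean of all probe sets of a gene, 6 with array weights, 1 with the beta-actin covariate and 0 with Random antisense 1 counted as untreated (0 to 6 with 1 array left out). AbPP antisense against Untreated SAMP8 had 5: 3 in a fit of the 8 arrays alone, 8 with the mean of probe sets and 2 with the covariate (2 to 11). Random antisense against Untreated SAMP8 had 1: 9 with the 8 arrays, 7 without both arrays, 0 with Random antisense 1 as untreated, 10 with weights, 3 with the mean of probe sets and 2 with the covariate (1 to 3). Untreated SAMP8 against Control had 5: 3 with the 8 arrays and 3 without both arrays (1 to 6). Related genes past the threshold numbered 1 without both arrays in each comparison of AbPP antisense, and 2 with weights against Untreated SAMP8 (0 to 1 with 1 array left out). The F test passed 3 genes with weights and 0 with the covariate (0 to 1). For all these counts, the share of all genes was computed with the main fit only. With 1 array left out, the medians ran over -0.13 to -0.07, -0.07 to -0.01, 0.04 to 0.08 and 0.03 to 0.24 in the order of the comparisons above, and the counts past the threshold over 0 to 0, 0 to 1, 0 to 0 and 0 to 0. AbPP antisense minus Random antisense changed sign for Nrxn2 with the mean of probe sets (-0.30) and the covariate (-0.050), and for Rims2 without both arrays (-0.063), with weights (-0.053), the mean of probe sets (-0.011) and the covariate (-0.24), and over -0.063 to 0.53 with 1 array left out. Vamp1 in Untreated SAMP8 minus Control ran over -0.31 to 0.044. The cause of these moves was not tested. Replicate numbers recur in each group but do not pair the mice: deviations from group means correlated between same-numbered arrays at -0.27 to 0.24. With the replicate number as a block, 3, 4, 1 and 5 genes had an unadjusted p under 0.05, and Unc13b kept its F test (adjusted p = 0.0360).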

Other observations

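Further probe sets of 4 presynaptic genes had higher values in Untreated SAMP8 than in Control at an unadjusted p under 0.05, and were chosen after their values were seen. A probe set of Rab3a, the vesicle GTPase, read 12.46, 12.34, 12.33 and 12.38 in Untreated SAMP8, against 11.84, 12.19, 10.93 and 11.47 in Control (difference 0.77, SE 0.20, limma adjusted p = 0.219). All Untreated SAMP8 arrays lay above all Control arrays, and the lowest was Control 3 rather than Control 4. A probe set of Nrxn3, the adhesion protein neurexin 3, read 11.48, 11.41, 11.28 and 11.61 in Untreated SAMP8, against 11.10, 10.90, 10.10 and 11.20 in Control (difference 0.62, SE 0.21, limma adjusted p = 0.690), and Control 3 was again lowest. The brightest probe sets of these genes, 0.17 for Rab3a and 0.08 for Nrxn3, were lowest on Control 4. Probe sets of Napa (0.71, adjusted p = 0.316) and Syt11 (0.53, adjusted p = 0.723) leaned the same way as the brightest ones.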
